A study of Homo sapiens with 6 samples.

Results

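The 10 genes described here encode the Notch receptors NOTCH1, NOTCH2 and NOTCH3, the Notch ligands JAG1, JAG2 and DLL4, and the target transcription factors HES1, HEY1, HEY2 and HEYL. They were taken by gene symbol from a table of 58735 genes, and each symbol matched 1 row. RNA was measured in 3 Control libraries of UE7T-9, a human mesenchymal stem cell line from bone marrow with genotype WT, and in 3 libraries of the SRRM4 KO line. The SRRM4 KO line was made from UE7T-9 by lentiviral CRISPR against SRRM4, a splicing factor known from neurons, with puromycin selection and limiting dilution, and is therefore 1 clone. No such clone of the Control cells enters the comparison, so the knockout and the cloning cannot be told apart. Both groups were grown in the same medium, and no age or time point applies. SRRM4 itself had 0 counts in all 6 libraries, and the knockout could not be checked at the RNA level. The study describes the loss of the protein as partial.

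A Notch receptor is a single-pass membrane protein that is engaged by a ligand on a neighbouring cell. The protease ADAM10 and the gamma-secretase complex then release its intracellular part, which joins the DNA-binding protein RBPJ and a Mastermind coactivator in the nucleus and switches on HES and HEY genes, themselves repressors. In bone marrow stroma, Notch signalling is known for holding back osteoblast differentiation, and stromal JAG1 for signalling to blood-forming cells.

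The libraries held between 21496117 and 23868323 counts, and 3 counts, the upper limit that a count of 0 allows, correspond to 0.123 to 0.139 CPM, the usual depth-scaled count, here with TMM-adjusted library sizes. This limit covers counting error only. Nothing in the labels says that the libraries of a group came from separate cultures, so p-values measure the spread between these libraries, which may be technical. Control replicate 1 was the most distant Control library (chi-square per degree of freedom 20.9 and 21.4, against 5.44 between Control replicates 2 and 3). The surface markers that define mesenchymal stem cells were counted in every library, with NT5E at 342 and 490 CPM in Control and SRRM4 KO, ENG at 246 and 194 CPM, and THY1 at 144 and 26.7 CPM. All 3 passed the test described below, NT5E as higher and ENG and THY1 as lower, THY1 by 5.38-fold. These are RNA values. For the proteins, the study's flow cytometry found CD73 (NT5E) and CD105 (ENG) unaffected by the knockout. It found little CD90 (THY1), and the study describes Control cells as lacking it and so missing a criterion for such cells. Of the markers of other cell types, the endothelial genes PECAM1 and CDH5, the blood cell gene PTPRC and the epithelial gene EPCAM had 3 counts or fewer in each library, and CD3E had 0 in all. Of the other endothelial genes, KDR was at 189 to 226 and TEK at 276 to 336 counts in Control against 62 to 81 and 10 to 34 in SRRM4 KO cells, and both passed as lower. VWF did not pass (-0.35), and TIE1, CLDN5 and ESAM were too low to be tested, with ESAM at 1, 9 and 0 counts in Control and 12, 1 and 13 in SRRM4 KO cells. The blood cell list of 6 genes summed to at most 21.5 CPM in a library, most of it CD14 at 324 to 392 counts, and the epithelial list of 4 genes to 97.0 to 118 CPM in Control and 101 to 108 CPM in SRRM4 KO cells, most of it KRT18. In these lists 2 blood cell and 3 epithelial genes were tested, and 1 passed, KRT8, as lower (-0.59). Over all genes tested, 41.6% passed, 20.7% as higher and 20.9% as lower.

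Among the Notch genes, RNA of NOTCH3, JAG1, JAG2 and HES1 was lower in SRRM4 KO cells, and no gene was higher. NOTCH3 fell 5.52-fold, JAG1 fell 1.86-fold, JAG2 1.83-fold and HES1 fell 1.49-fold. The HES1 call was lost without Control replicate 2 or Control replicate 3, which left 3 lower genes. NOTCH2, the most abundant receptor, and NOTCH1 did not pass the test, nor did the low-count genes DLL4, HEY1 and HEY2. HEYL was at or near 0 in all libraries. A gene passed with an adjusted p under 0.05 (edgeR's quasi-likelihood test, two-sided, Benjamini-Hochberg adjustment over the 15341 genes kept by the filter on low counts). The filter kept 9 of the 10 genes, of which 4 passed as lower and 0 as higher. With edgeR at an unadjusted p under 0.05, and with DESeq2, the number higher was also 0. Over all genes tested, 41.6% passed, 20.7% as higher and 20.9% as lower. The median log2 fold change (SRRM4 KO against Control) was -0.57 over the 9 genes and -0.01 over all genes tested. The median of the 9 takes in HEY2 at -1.52, which the filter kept through the Control group alone. Of the 4, only NOTCH3 was beyond a log2 fold change of 1 in size, as were 7.14% of all genes tested on the lower side. On the higher side it was 0 of the 9, against 5.45% of all genes tested. For 5 of the 9 genes every library of 1 group lay below every library of the other, against 51.8% of all genes tested. HEY2 is 1 of these 5, and its groups were apart by 1 count only.

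**Figure D1:**
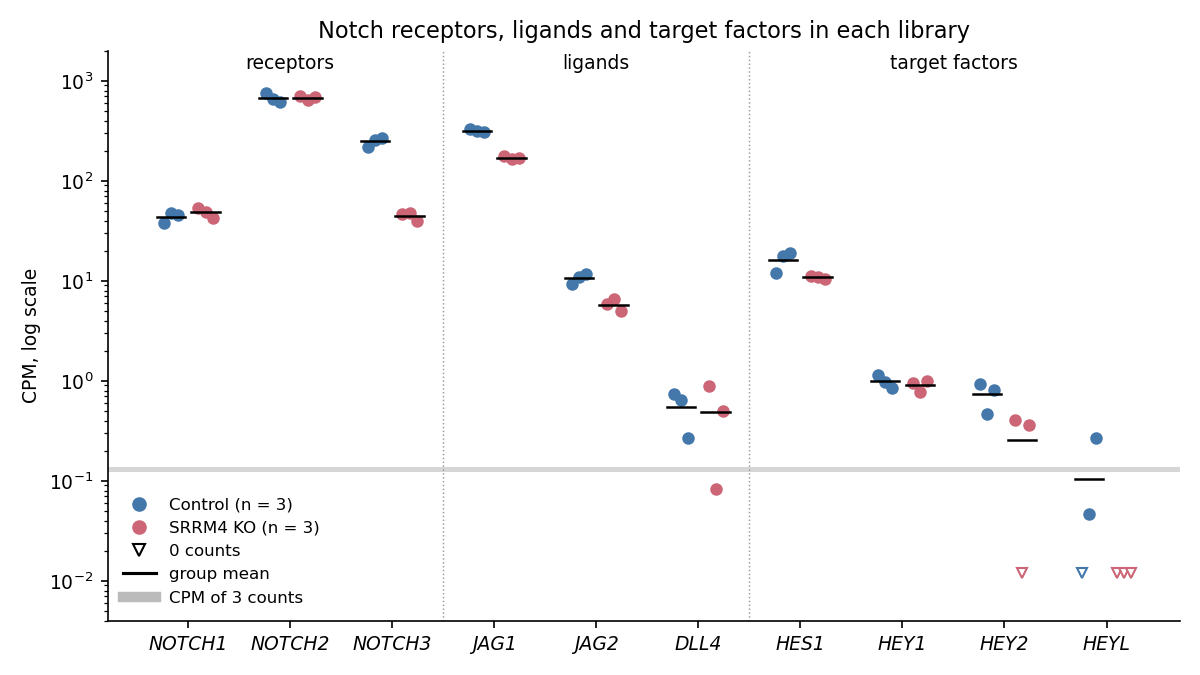
Level of each Notch gene in each library as CPM on a log axis, with Control in blue and SRRM4 KO in red, black lines for group means, open triangles for 0 counts and a grey band for the CPM that 3 counts correspond to. The NOTCH3 points of the 3 SRRM4 KO libraries lie between 39.9 and 48.0 CPM, far under the lowest Control library at 220 CPM, while the NOTCH2 points of both groups mix.

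Of the receptors, NOTCH3 changed. NOTCH3 (ENSG00000074181, chromosome 19, 15159038 to 15200981, minus strand, GRCh38) encodes the receptor best known from pericytes and vascular smooth muscle. It had 4772, 5545 and 5952 counts in Control replicates 1 to 3, or 220, 257 and 267 CPM. In SRRM4 KO replicates 1 to 3 it had 1044, 1170 and 878 counts, or 46.9, 48.0 and 39.9 CPM. Every SRRM4 KO library was below every Control library, and the gap between the groups was wider than the spread within either. Control cells averaged 248 ± 24.6 CPM, and SRRM4 KO cells 44.9 ± 4.40 CPM (SD, n = 3 each). The log2 fold change was -2.46 (standard error 0.10, edgeR adjusted p = 1.17e-10), with a 95% interval from -2.69 to -2.24. Leaving out any single library gave values from -2.54 to -2.39. The only gene annotated within the span of NOTCH3, the microRNA gene MIR6795, shares no exonic base with it and had 0 counts.

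Several marker genes of mural cells, the pericytes and smooth muscle cells in which NOTCH3 is prominent, were lower as well. The summed level of the list ACTA2, RGS5, MCAM, DES, CSPG4, PDGFRB, MYH11 and CNN1 was 2768 to 3276 CPM in the Control libraries and 1507 to 1692 CPM in the SRRM4 KO libraries. The list takes 9 rows of the table because RGS5 has 2, and of the 8 rows tested 5 passed as lower and 1, CSPG4, as higher, where 20.9% and 20.7% of all genes tested did. None of the 9 rows was at 0 in all libraries. DES had 10, 46 and 24 counts in Control and 1, 4 and 5 in SRRM4 KO cells. The part of these genes in the NOTCH3 result was not tested. In RNA from whole cultures, fewer cells that express a gene and less of its RNA per cell cannot be told apart.

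NOTCH2 (ENSG00000134250, chromosome 1, 119911553 to 120069626, minus strand) is a broadly expressed receptor and was the most abundant Notch gene here. Its levels were 761, 660 and 620 CPM in Control and 709, 641 and 685 CPM in SRRM4 KO cells. The groups overlapped, and the highest and lowest values were both Control libraries. The log2 fold change was 0.00 to 2 decimals, with a 95% interval from -0.18 to 0.17 (edgeR adjusted p = 0.973). NOTCH2 shares near-identical sequence with NOTCH2NLA, and reads common to both could be counted on either or on neither. NOTCH2NLA had 91 to 204 counts per library, between 0.600% and 1.22% of the counts of both genes.

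NOTCH1 (ENSG00000148400, chromosome 9, 136494433 to 136545786, minus strand) encodes the founding receptor of the family. It was at 37.9, 48.2 and 45.2 CPM in Control and at 53.6, 49.1 and 42.9 CPM in SRRM4 KO cells. The libraries of the groups interleaved, with 2 SRRM4 KO libraries above all Control libraries and the third below 2 of them. Its log2 fold change was 0.15 (95% interval -0.10 to 0.40, edgeR adjusted p = 0.331). A rise beyond 0.40 or a fall beyond -0.10 on the log2 scale therefore lay outside this interval. With each library left out, the log2 fold change of NOTCH1 ran from 0.054 to 0.22.

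The balance of receptor RNA shifted with the fall of NOTCH3. To compare genes of different length, CPM was divided by the deposited gene length, which for all 10 genes equals the exonic bases of GENCODE release 29. On this scale of CPM per kilobase, the level of the 3 receptors summed to 72.4, 71.3 and 69.7 in Control and to 52.3, 48.0 and 49.1 in SRRM4 KO cells. NOTCH3 held 32.4%, 38.4% and 40.8% of that sum in the Control libraries and 9.53%, 10.7% and 8.64% in the SRRM4 KO libraries. The share of NOTCH2 went from 56.9 ± 5.05% (SD, n = 3) to 81.0 ± 1.76% (SD, n = 3), and that of NOTCH1 from 5.94 ± 0.783% (SD, n = 3) to 9.38 ± 0.835% (SD, n = 3). For each of the 3 shares the groups did not overlap, and the exact two-sided permutation test gave p = 0.1, the smallest that 3 libraries against 3 allow. These shares do not depend on how libraries are scaled, and the larger shares of NOTCH2 and NOTCH1 stand beside levels that did not pass the test.

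**Figure D2:**
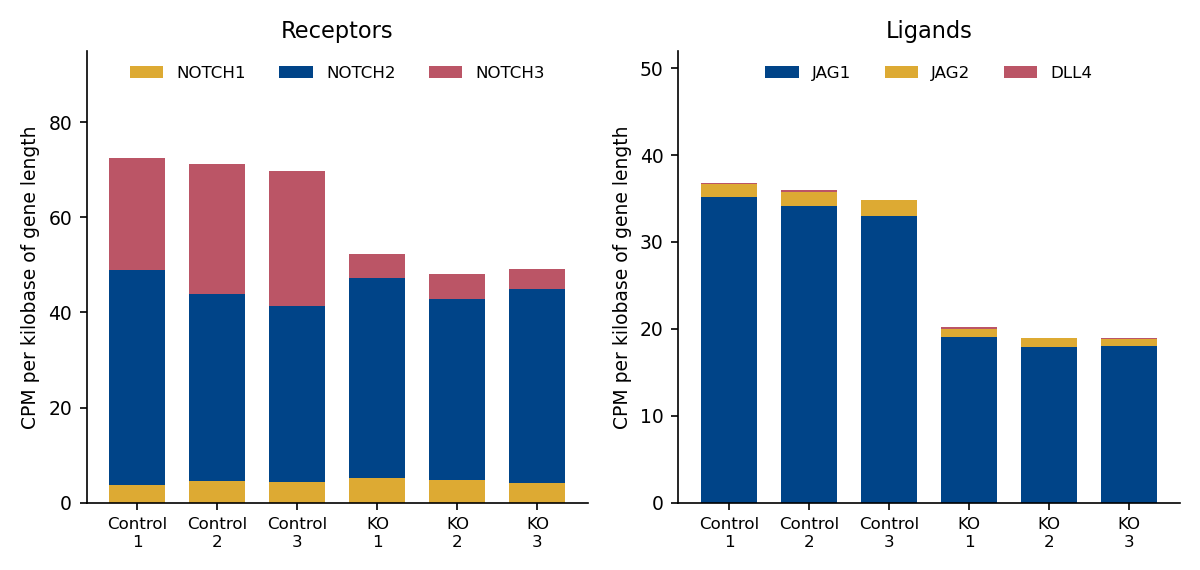
Level of the receptors and of the ligands in each library, stacked, as CPM per kilobase of gene length, with 1 bar per library (Control 1 to 3, SRRM4 KO 1 to 3). The NOTCH3 part of the receptor bars shrinks from 23.4 to 28.4 in Control to 4.25 to 5.11 in SRRM4 KO cells, the NOTCH2 part lies between 36.9 and 45.3 in all libraries, and JAG1 makes up nearly the whole ligand bar in both groups.

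Both Jagged ligands were lower in SRRM4 KO cells. JAG1 (ENSG00000101384, chromosome 20, 10637684 to 10673999, minus strand) encodes the ligand through which marrow stroma is known to signal to blood-forming cells. It was at 327, 317 and 307 CPM in Control and at 178, 166 and 168 CPM in SRRM4 KO cells. The spread within each group was small beside the difference, and the groups did not overlap. The fall was 1.86-fold, a log2 fold change of -0.89 (standard error 0.076, edgeR adjusted p = 2.17e-07). The antisense gene AL050403.2 shares 79 exonic bases with JAG1, 0.85% of its length, and had at most 2 counts in a library.

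JAG2 (ENSG00000184916, chromosome 14, 105140981 to 105168824, minus strand), the second Jagged ligand, was counted far less often. Its counts were 202, 235 and 260 in Control, or 9.32, 10.9 and 11.7 CPM. They were 130, 159 and 111 in SRRM4 KO cells, or 5.84, 6.53 and 5.04 CPM. Again each SRRM4 KO library was below each Control library. The log2 fold change was -0.87 (standard error 0.17, edgeR adjusted p = 0.000798), a 1.83-fold fall. An overlapping transcript on the same strand, AL512356.1, shares 469 exonic bases with JAG2 (7.33%) and had 0 counts in all 6 libraries. Reads that fall on both genes may not have been counted on either.

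DLL4 (ENSG00000128917, chromosome 15, 40929333 to 40939073, plus strand), the Delta-like ligand known from endothelial tip cells, was near the detection limit. It had 16, 14 and 6 counts in Control and 20, 2 and 11 in SRRM4 KO cells. The highest and the lowest count both came from SRRM4 KO libraries. Its log2 fold change was -0.17 with a 95% interval from -1.68 to 1.34 (edgeR adjusted p = 0.870), which includes a 2-fold change in either direction. The endothelial list (PECAM1, CDH5, VWF, KDR, TIE1, TEK, CLDN5 and ESAM) summed to 22.7 to 26.3 CPM in Control and 4.72 to 6.59 CPM in SRRM4 KO cells, and its part in the DLL4 values was not tested. Of its 8 genes 3 were tested and 2 passed, KDR and TEK, both as lower, where 20.9% of all genes tested passed as lower. In this list 2 genes had 3 counts or fewer in every library and none was at 0 in all.

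JAG1 made up nearly all of the ligand RNA in every library, so that its share had little room to rise. The 3 ligands summed to 36.8, 35.9 and 34.9 CPM per kilobase in Control and to 20.2, 18.9 and 19.0 in SRRM4 KO cells. JAG1 held 95.6%, 94.9% and 94.6% of this sum in Control and 94.6%, 94.5% and 95.3% in SRRM4 KO cells. The difference between the means of -0.247 percentage points was smaller than the spread between libraries and was above 0 without Control replicate 1. The exact two-sided permutation test on the JAG1 share gave p = 0.5, in a design whose smallest p is 0.1. The small share of DLL4 ran from 0.0911% to 0.932%, both in SRRM4 KO libraries.

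Of the target factors, HES1 was the only gene that passed the test. HES1 (ENSG00000114315, chromosome 3, 194136145 to 194138732, plus strand) encodes a basic helix-loop-helix repressor and is the classical direct target of the RBPJ complex. Promoter sequence is shown for the 3 target factors whose window holds the core letters of the RBPJ motif, TGGGAA or its reverse complement TTCCCA, and for NOTCH3, whose fall was the largest among the 9 tested Notch genes that passed, and which does not. Each line gives the 250 bases before the RefSeq transcription start (GRCh38.p14), read 5′ to 3′ on the strand of the gene, with the motif letters in capitals. The windows are chr3:194135898-194136147 (plus strand) for HES1, chr6:125749382-125749631 (plus) for HEY2, chr1:39639644-39639893 (minus) for HEYL and chr19:15200996-15201245 (minus) for NOTCH3.
HES1: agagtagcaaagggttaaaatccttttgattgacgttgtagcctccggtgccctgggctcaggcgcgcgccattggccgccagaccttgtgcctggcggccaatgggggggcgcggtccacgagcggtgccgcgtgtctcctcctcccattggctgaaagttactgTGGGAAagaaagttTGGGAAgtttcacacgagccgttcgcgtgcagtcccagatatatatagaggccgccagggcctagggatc
HEY2: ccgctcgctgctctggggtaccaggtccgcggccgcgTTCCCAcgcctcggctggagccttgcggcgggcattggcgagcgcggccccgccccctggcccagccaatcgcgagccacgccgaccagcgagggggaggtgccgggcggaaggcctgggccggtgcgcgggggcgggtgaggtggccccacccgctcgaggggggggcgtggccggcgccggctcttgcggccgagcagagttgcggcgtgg
HEYL: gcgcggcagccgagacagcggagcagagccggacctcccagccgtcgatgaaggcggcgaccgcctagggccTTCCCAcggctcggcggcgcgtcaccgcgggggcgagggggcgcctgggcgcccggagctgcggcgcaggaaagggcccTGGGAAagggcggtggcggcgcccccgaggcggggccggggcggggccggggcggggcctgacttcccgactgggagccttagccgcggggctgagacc
NOTCH3: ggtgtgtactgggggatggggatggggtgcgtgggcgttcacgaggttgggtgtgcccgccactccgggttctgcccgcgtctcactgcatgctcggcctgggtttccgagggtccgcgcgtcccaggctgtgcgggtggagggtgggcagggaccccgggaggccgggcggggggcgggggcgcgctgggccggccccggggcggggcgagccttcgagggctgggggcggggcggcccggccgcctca

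The HES1 window held 2 matches on the strand of the gene, starting 84 and 70 bases before the transcription start. HEYL held 2 matches, 1 on each strand, and HEY2 held 1, on the opposite strand. No match was found in the windows of NOTCH1, NOTCH2, NOTCH3, JAG1, JAG2 and DLL4. RefSeq windows matched 9 of the 10 symbols, the exception being HEY1. Of all 35116 promoter windows of the same length, 20.8% held at least 1 match on either strand and 2.90% held 2 or more. The E-box CACGTG was in none of the 9 windows and in 6.34% of all, and the N-box CACNAG, a motif bound by HES proteins, was in those of HES1 (3 matches) and NOTCH3 (1 match) and in 32.0% of all. None of these motifs overlapped the letters marked above. The RefSeq start used for HEY2 lies 1968 bases from the start of the gene in the deposited table, and that of HES1 lies 3 bases from it. A match describes letters only and says nothing of binding in these cells.

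HES1 had 259, 380 and 426 counts in Control, or 11.9, 17.6 and 19.1 CPM, and 252, 269 and 229 counts in SRRM4 KO cells, or 11.3, 11.0 and 10.4 CPM. The SRRM4 KO libraries lay close together, while Control replicate 1 was barely above the highest of them. The log2 fold change was -0.57 (standard error 0.17, 95% interval -0.93 to -0.21, edgeR adjusted p = 0.0134). Leaving out Control replicate 2 or Control replicate 3 ended the call (edgeR adjusted p = 0.0502 and 0.0756, log2 fold changes -0.51 and -0.44), and without Control replicate 1 the value was -0.75 (edgeR adjusted p = 0.000139).

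The other target factors were rare. HEY1 (ENSG00000164683, chromosome 8, 79764010 to 79767863, minus strand), a repressor related to HES1, had 25, 21 and 19 counts in Control and 21, 19 and 22 in SRRM4 KO cells. These counts mixed between the groups, and the log2 fold change of -0.13 had a 95% interval from -1.07 to 0.81 (edgeR adjusted p = 0.841). HEY2 (ENSG00000135547, chromosome 6, 125747664 to 125761269, plus strand), known from heart and arterial development, had 20, 10 and 18 counts in Control and 9, 0 and 8 in SRRM4 KO cells. Its groups did not overlap, but by 1 count only, and the log2 fold change of -1.52 (95% interval -3.14 to 0.10) did not pass (edgeR adjusted p = 0.125). Without SRRM4 KO replicate 2, the library at 0, it was -0.93, and the filter kept the gene through the Control group alone. HEYL (ENSG00000163909, chromosome 1, 39624153 to 39639945, minus strand), a further member of the HEY family, had 0, 1 and 6 counts in Control and 0 in each SRRM4 KO library, and was removed by the filter on low counts.

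Ranked by CPM per kilobase, the order of the genes in Control was NOTCH2 (40.5), JAG1 (34.1), NOTCH3 (26.4), HES1 (7.87), NOTCH1 (4.22), JAG2 (1.66), HEY1 (0.307), HEY2 (0.267), DLL4 (0.116) and HEYL (0.0287). Of neighbours in this order, HEY1 and HEY2 overlapped, as did DLL4 and HEYL. In SRRM4 KO cells NOTCH2 (40.4) and JAG1 (18.4) still led, and HES1 (5.30), NOTCH3 (4.78) and NOTCH1 (4.68) followed. Each of these 3 overlapped its neighbour among them, so that NOTCH3 and NOTCH1 no longer differed beyond the spread between libraries. JAG2 (0.907) and HEY1 (0.281) came next, and DLL4 (0.104), HEY2 (0.0933) and HEYL (0) overlapped their neighbours.

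Genes of whole chromosomes differ somewhat in level between the groups, so each Notch gene was set beside its surroundings. The median log2 fold change of the tested genes that start within 5 Mb was 0.18 around NOTCH3 (226 genes), 0.36 around JAG1 (22 genes), 0.21 around JAG2 (62 genes) and 0.18 around HES1 (56 genes). The median was above 0 around all 4 genes that passed as lower, and also around NOTCH2, DLL4 and HEY1, which did not pass. The part of the surroundings in these changes was not tested. Around NOTCH1 the median was -0.15 (100 genes), against 0.15 for the gene itself, and around NOTCH2 it was 0.13 (34 genes). Around HEY2 it was -0.28 (24 genes), the same direction as the gene's own value, and around DLL4 and HEY1 it was 0.05 (97 genes) and 0.11 (25 genes). With the median of each chromosome subtracted, JAG1 also went beyond 1 in size, at -1.04.

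**Figure D3:**
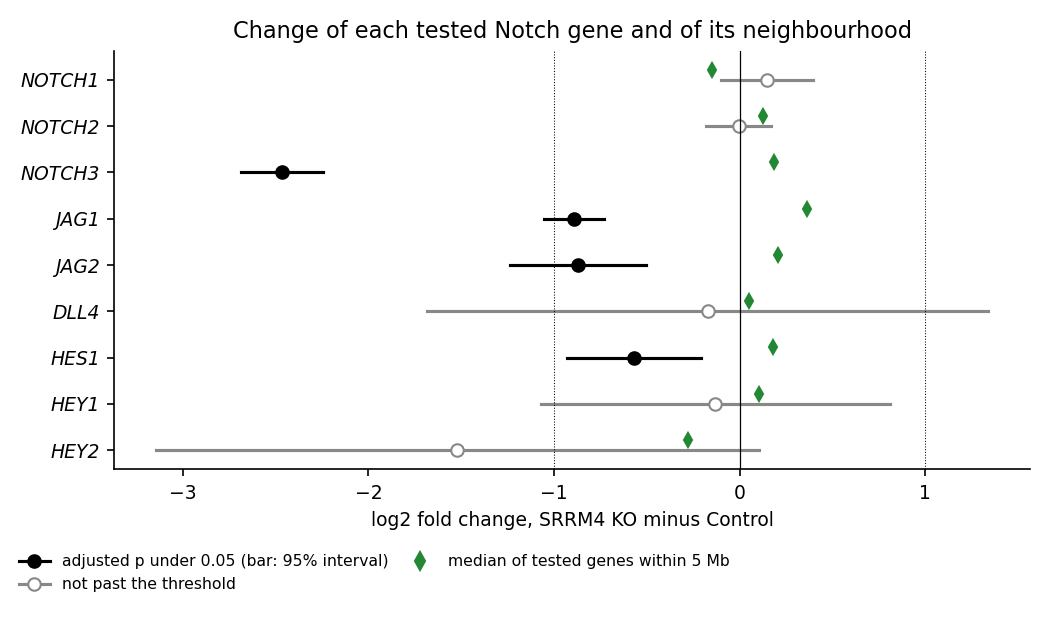
Log2 fold change (SRRM4 KO minus Control) of the 9 tested Notch genes, with 95% intervals, filled where the adjusted p was under 0.05, and, as diamonds, the median of the tested genes that start within 5 Mb. NOTCH3 at -2.46 is the only interval that lies wholly beyond -1, and the intervals of DLL4, HEY1 and HEY2 are the widest.

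In the rest of the pathway, genes passed in both directions. Of 65 further Notch pathway genes, 57 were tested, and 13 passed as higher and 9 as lower, or 38.6%, where 41.6% of all genes passed. With upper-quartile normalization it was 11 higher and 12 lower, while over all genes tested 3171 higher and 3213 lower became 2955 and 3470. Their median log2 fold change was -0.03. Beyond 1 in size were 2 higher genes, DLK2 and HES2, and 2 lower ones, DTX4 and TLE2. All 4 had low counts, and HES2, DTX4 and TLE2 had under 10 counts in every library of their lower group, so that the filter kept them through the higher group alone. Without the filter TLE2 and HES2 passed (edgeR adjusted p = 8.17e-05 and 0.0182) and DTX4 did not (edgeR adjusted p = 0.0782).

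Among other receptors and ligands, DLL1, a Delta-like ligand, had 71, 84 and 86 counts in Control and 58, 33 and 35 in SRRM4 KO cells. It was lower, at a log2 fold change of -0.99 (edgeR adjusted p = 0.0165), and did not pass without SRRM4 KO replicate 2 (edgeR adjusted p = 0.0642). DLL3, a ligand known as an inhibitor, had 7, 11 and 11 counts against 2, 0 and 2 and was not tested. NOTCH4, the endothelial receptor, had 3 to 13 counts in Control and 2 to 20 in SRRM4 KO cells. DLK2, a non-canonical ligand of the Delta family, rose from 17, 24 and 32 to 85, 82 and 78 counts, a log2 fold change of 1.68 (edgeR adjusted p = 0.000597). Its relative DLK1 had 0 counts in all 6 libraries, and EGFL7 (0.46) and DNER (-0.16) did not pass.

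Of 9 genes of receptor processing 1 passed, or 11.1%, against 41.6% of all genes tested. It was the proprotein convertase FURIN, which cleaves the receptor precursor. Its level was 161 ± 27.5 CPM in Control and 243 ± 18.5 CPM in SRRM4 KO cells (SD, n = 3 each), a log2 fold change of 0.60 (edgeR adjusted p = 0.000523). The protease ADAM10 (-0.09) and the gamma-secretase subunit NCSTN (-0.11), which had the most counts of the list without regard to length, did not pass, with 95% intervals from -0.28 to 0.10 and from -0.27 to 0.06. NCSTN passed without Control replicate 1, at -0.16 (edgeR adjusted p = 0.0352). The other 6 genes, among them both presenilins, did not pass either.

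Of the glycosylation enzymes that modify the receptors 8 were tested, with 3 higher and 1 lower, or 50%, against 41.6% of all genes tested. The xylosyltransferase GXYLT1 rose from 37.4 ± 4.79 to 68.4 ± 2.30 CPM (SD, n = 3; log2 fold change 0.87, edgeR adjusted p = 8.76e-06). Its paralogue GXYLT2 fell by 0.55 on that scale, from 43.4 ± 5.30 to 29.7 ± 0.308 CPM (SD, n = 3; edgeR adjusted p = 0.000934). The Fringe enzyme RFNG rose (0.51). POFUT1, the O-fucosyltransferase, was close to the threshold (0.22, edgeR adjusted p = 0.0451) and did not pass with any Control or SRRM4 KO library left out except Control replicate 1. EOGT (-0.18) and LFNG (0.06) did not pass, and MFNG had at most 4 counts in a library.

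Among the 11 tested trafficking proteins and ubiquitin ligases, 3 passed in each direction, 54.5% in total, against 41.6% of all genes tested. DTX3L (0.75), NEURL1B (0.57) and the ubiquitin ligase subunit FBXW7 (0.48), which targets the released receptor domain for breakdown, were higher, and ITCH (0.18) did not pass except without Control replicate 1 (0.29, edgeR adjusted p = 0.00369). NUMBL (-0.86), an adaptor related to the Notch inhibitor NUMB, DTX3 (-0.47) and DTX4 were lower. DTX4 had 23, 12 and 20 counts in Control and 2, 6 and 9 in SRRM4 KO cells (log2 fold change -1.73, edgeR adjusted p = 0.0371), and its call was lost without any of Control replicate 1, Control replicate 3, SRRM4 KO replicate 1 or SRRM4 KO replicate 2 (edgeR adjusted p from 0.0986 to 0.147). Without SRRM4 KO replicate 1 the call of DTX3 was lost as well (edgeR adjusted p = 0.0524). DTX1, itself a known Notch target, had 0 counts in all 6 libraries.

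Of the 9 genes of the nuclear complex, all tested, 1 passed in each direction, 22.2% in total, against 41.6% of all genes tested. RBPJ was at 109 ± 10.3 CPM in Control and 128 ± 6.55 CPM in SRRM4 KO cells (SD, n = 3). Its groups did not overlap, but it was short of the threshold (log2 fold change 0.22, edgeR adjusted p = 0.0606), and passed without Control replicate 1 (0.30, edgeR adjusted p = 0.00173). The coactivators MAML1 (-0.03), MAML2 (0.00) and MAML3 (-0.07) did not pass. CCNC, the cyclin that pairs with CDK8, passed as higher (0.46), and the acetyltransferase CREBBP passed as lower (-0.25, edgeR adjusted p = 0.0282). With the median of its chromosome subtracted, CREBBP was at 0.033, above 0. Its call was lost without Control replicate 3, SRRM4 KO replicate 1 or SRRM4 KO replicate 2 (edgeR adjusted p from 0.0547 to 0.130).

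Of 12 corepressor genes, all tested, 3 passed as higher and 3 as lower, 50% in total, against 41.6% of all genes tested. TLE1 (0.61), HDAC1 (0.28) and CTBP1 (0.26) were higher. The groups of CTBP1 overlapped. Its call was lost with upper-quartile normalization, at least 10 counts in every library and the replicate block (edgeR adjusted p = 0.0647, 0.0501 and 0.0655). TLE4 (-0.27, or -0.025 with the median of its chromosome subtracted), L3MBTL3 (-0.52) and TLE2 were lower. TLE2, a Groucho-type corepressor, had 28, 24 and 31 counts in Control and 2, 0 and 7 in SRRM4 KO cells, a log2 fold change of -3.20 (standard error 0.73, edgeR adjusted p = 0.00246) that was -4.71 without SRRM4 KO replicate 3 and -2.61 without SRRM4 KO replicate 2. The calls of HDAC1, CTBP1 and TLE4 were each lost in some fits that left out 1 library, with edgeR adjusted p up to 0.0744, 0.163 and 0.0855.

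The list of other targets also takes in HES genes that are related to known targets. Of this list, HES2 had 8, 6 and 7 counts in Control and 28, 25 and 26 in SRRM4 KO cells. It rose by 1.83 on the log2 scale (edgeR adjusted p = 0.00866). HES4 (-0.34) and HES6 (0.01) did not pass. HES4 passed without Control replicate 1, at -0.56 (edgeR adjusted p = 0.000572), and without the filter on low counts (-0.34, edgeR adjusted p = 0.0376). Without Control replicate 3 it was at -0.16 (edgeR adjusted p = 0.549). HES5, a canonical target, had 0 counts in all 6 libraries, and NRARP and HES7 were too low to be tested, with at most 10 and 15 counts in a library.

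**Figure D4:**
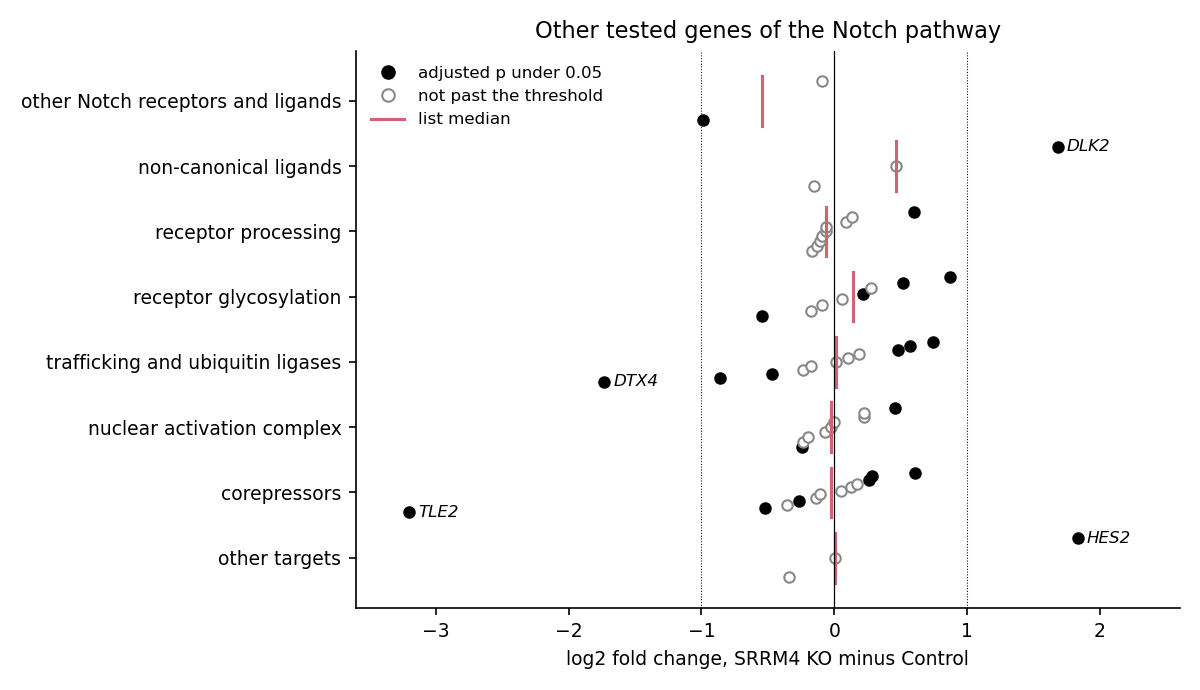
Log2 fold change (SRRM4 KO minus Control) of the 57 tested genes of the rest of the Notch pathway by list, with filled points for an adjusted p under 0.05, a red line for each list's median and names for genes beyond 1 in size. Filled points lie on both sides of 0 in the lists of glycosylation, trafficking, nuclear and corepressor genes, and most points lie between -1 and 1.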

How the data were processed

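RNA of 3 Control and 3 SRRM4 KO libraries of UE7T-9 was sequenced from non-stranded libraries. As deposited by the authors, the values are raw read counts per gene, not normalized, beside gene lengths in bases. The submitters' processing notes list HISAT2 2.0.5, featureCounts 1.5.0-p3 and DESeq2, and the handling of reads with several possible genes is not given in the sources used here. Without strand, reads of a gene and its antisense partner cannot be told apart. Gene coordinates, on GRCh38, matched GENCODE release 29 for all 10 genes. Groups and replicate numbers were taken from sample titles.

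Counts were analysed with edgeR 4.0.16 in R 4.3.3 (TMM, filterByExpr, quasi-likelihood test, Benjamini-Hochberg adjustment). The standard error is the absolute log2 fold change divided by the root of F. Shares were compared with an exact permutation test over libraries. Other settings tried were upper-quartile scaling, size factors of DESeq2, a minimum of 10 counts in all libraries, no filter, a replicate block, shares without division by length or with NOTCH2NLA added, each library left out, DESeq2 1.42.0, glmTreat, protein-coding genes only and chromosome centring.

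The genes, pathway lists and markers were chosen with earlier results of these data known. The rule for naming took all 10 genes, pathway genes beyond a log2 fold change of 1, the 2 most counted of each list, RBPJ, the MAML genes and genes at 0. Other genes that passed, and DNER, LFNG, MFNG, DLL3, HES7 and NRARP, were named after their values were seen. Some genes that this rule takes are not reported here.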

Additional observations from a re-analysis of the deposited data

How the results depend on the processing

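NOTCH3 stayed below 0 and past the threshold under all 15 alternatives, with log2 fold changes from -2.60 to -2.39. JAG1 and JAG2 did so under 14 of 15 each, and HES1 under 12. Chromosome centring, 1 of the 15, keeps the p-values of the uncentred fit and is no test of its own. A test against a log2 fold change of 1 (glmTreat) left 1 of the 4 lower Notch genes, NOTCH3, and of the other pathway genes 0 higher and 1 lower, with or without the requirement of a fitted change beyond 1. That test asks for a larger change by construction. Subtracting chromosome medians put 2 Notch genes and 4 other pathway genes that passed beyond -1. The count of 2 lower pathway genes beyond 1 became 1 without the filter, with at least 10 counts in every library and with DESeq2. With upper-quartile normalization it became 3, with DLL1 at -1.02. It ran from 1 to 3 when single libraries were left out (1 without Control replicate 3, 3 without Control replicate 1, SRRM4 KO replicate 1 or SRRM4 KO replicate 3). The count of 2 higher ones became 1 with at least 10 counts in every library. That minimum removes HES2, DTX4 and TLE2 and leaves DLL1 (-1.01) as the lower gene, while without the filter and with DESeq2 DTX4 did not pass (adjusted p = 0.0782 and 0.0875).

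Several fold changes changed sign, that of CREBBP among genes that passed. NOTCH2 ran from -0.069 to 0.083 with each library left out, DLL4 from -0.94 to 0.33, NOTCH4 from -1.22 to 0.35, MAML2 from -0.084 to 0.13, MAML3 from -0.25 to 0.029 and HES6 from -0.18 to 0.24. HES6 was also at -0.024 with upper-quartile normalization, -0.013 with at least 10 counts in every library and -0.0097 with protein-coding genes only. Chromosome centring put CREBBP at 0.033 and MAML1 at 0.035.

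Same-numbered libraries deviated together with r = -0.11, 0.13 and -0.14, and differently numbered ones with r from -0.207 to 0.284. With 3 libraries per group, these values cannot decide whether the numbers pair the samples. With the replicate block, 4 Notch genes passed as lower and 0 as higher, and 11 and 7 other pathway genes as higher and lower, against 13 and 9 without it, and MAML2 was at 0.0028. Leaving out single libraries, without the block, gave 10 to 18 higher and 6 to 12 lower pathway genes, and the split was 10 and 10 with at least 10 counts in every library and 13 and 12 with protein-coding genes only. HEY2 ran from -2.02 to -0.93 in the 4 such fits that kept it; without Control replicate 1 or 3 the filter removed it. Without division by length, the share differences were 1.76 percentage points for NOTCH1, 18.0 for NOTCH2 and -19.8 for NOTCH3, against 3.44, 24.1 and -27.6. Adding NOTCH2NLA counts to NOTCH2 moved none of the 3 by more than the spread between libraries. At this depth the intervals of DLL4, HEY1 and HEY2 all included a 2-fold fall.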
